A study of Anastrepha ludens with 9 samples.

Results

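The assembled genes described here are those of the Anastrepha ludens embryo for which the most transcript versions were assembled. Anastrepha ludens is the Mexican fruit fly, and whole embryos kept in water at 25 °C were sampled at 3 stages, with 3 libraries of total RNA per stage. Syncytium embryos (0 to 9 h) have nuclei that divide without membranes between them, in cellularization embryos (9 to 18 h) membranes enclose the nuclei, and in gastrulation embryos (18 to 30 h) the germ layers form. The groups differ in stage alone as far as the labels say, no treatment or mutant allele is named, and how many embryos made up a library is not given in the sources used here. A member is a Trinity gene with 15 or more contigs, a longest contig under 10000 bases and a mean summed level from 5 to under 1000 TPM over the 3 libraries of its stage. TPM, transcripts per 1000000, is a level corrected for contig length. The members were thus chosen by measured contig number, contig length and level, which are themselves given as description and not tested. In all, 122 of 198130 assembled genes were members, 39 of 45798 for the syncytium, 35 of 76713 for cellularization and 48 of 75619 for gastrulation.

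Trinity is an assembler that builds transcripts from reads without a genome. It calls the transcripts of one connected group of overlapping sequences a gene, and each of them a contig or isoform. Animal genes give several transcripts through alternative start sites, alternative splicing and alternative ends, and in flies some regulatory and neuronal genes have very many. In early insect embryos RNA that the mother placed in the egg is gradually replaced by RNA made from the embryo's own genome. The contigs of one assembled gene can also be alleles of a transcript, copies from related genes, or unfinished pieces, and the deposited tables do not tell these apart.

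Each stage was assembled on its own, and contig names do not carry over, so members of different stages cannot be paired. The name TRINITY_DN1434_c0_g1 occurs among the members of 2 stages and was not read as the same gene. Assembly names carry no gene symbol or RefSeq identifier, and no contig sequences were used here, so the members were not matched to annotated genes. No symbol, function, position or marker check is therefore given, and members are called by their assembly names. In the RefSeq table for assembly idAnaLude1.1, 54 of 14586 protein-coding genes (0.370%) list 15 or more transcripts, and the median gene lists 1. Whether those 54 genes are among the members was not analysed here.

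Genes with 15 or more contigs numbered 43, 36 and 50 in the 3 stages in order before the limits on length and level. A longest contig of 10000 bases or more left out 3, 1 and 1 of them. The limit of 1000 TPM left out TRINITY_DN1171_c0_g1 of the syncytium, with 1379 TPM and 16 contigs. The limit of 5 TPM left out TRINITY_DN6102_c0_g1 of gastrulation, with 3.80 TPM and 15 contigs. The lowest members just inside that limit had 8.55, 5.96 and 6.51 TPM in the 3 stages in order. At the limit of contig number, 11, 12 and 14 members had exactly 15 contigs, while 15, 28 and 20 genes of the same level and length window had 14.

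The members listed 662, 610 and 858 contigs, with a median of 16, 17 and 17 per gene and a maximum of 25, 26 and 30. Their median level was 47.4, 42.0 and 47.8 TPM, and their median longest contig measured 5054, 4498 and 4269.5 bases. Of the listed contigs, 91, 89 and 74 were at 0 TPM in every library of their stage. In 24 of 39, 21 of 35 and 24 of 48 members, fewer than 15 contigs reached 1 estimated count in any library. The contig numbers in the names run beyond the number of contigs listed in 35 of 39, 30 of 35 and 42 of 48 members. Over all assembled genes, most of them with fewer contigs, this held for 5418 of 45798, 7086 of 76713 and 7245 of 75619. It was thus not limited to the members. In TRINITY_DN2283_c0_g1 of the syncytium, for example, 19 contigs are listed and one of them is i36, and what became of the numbers in between is not given in the sources used here.

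Library totals ranged from 28099549 to 51201882 estimated counts, and the members held between 0.405% and 0.759% of them. A member had a median of 2690 to 4601 estimated counts in the syncytium libraries, 2570 to 2772 in the cellularization libraries and 1889 to 2768 in the gastrulation libraries. The leading contig, that with the highest TPM of its gene in a library, had a median of 499 to 1011, 590 to 705 and 530 to 618 estimated counts. The weakest leading contig rested on 2.47 counts. A few members therefore have leaders that the depth barely resolves. Reads shared by several contigs were divided between them by estimation, and the files hold no error for that division.

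The leading contig of a typical member held under 33% of the gene's TPM at every stage. The median share over the members was 29.8%, 28.9% and 30.9% in syncytium replicates 1, 2 and 3. At cellularization it was 26.2%, 27.4% and 32.8%, and at gastrulation 29.7%, 27.6% and 28.7%. The libraries of all 3 stages overlapped, and cellularization replicate 3 was the highest of the 9. The stage means were 29.9% ± 1.01, 28.8% ± 3.50 and 28.7% ± 1.01 (SD, n = 3 each), with no difference over the stages beyond the spread between libraries (exact permutation p = 0.775, and 0.886 after Benjamini-Hochberg adjustment over 8 measures). Over the 3 stages the exact p was 0.1 by estimated counts and 0.0714 with 10 or more contigs. The setting with 10 or more contigs held 336, 347 and 367 genes, most of them not members. Gastrulation minus syncytium was -3.26 percentage points by counts, -3.53 with the mean over members and -1.85 with 10 or more contigs. It was -1.13 with contigs of 500 bases or more (exact permutation p = 0.1 in each of these settings). The sign turned in 2 settings, with 20 or more contigs and with 15 contigs required to have reads. Without cellularization replicate 3 the test over the 3 stages gave an exact p of 0.0464, with cellularization lowest. Replicate 3 had the highest leading share of the 3 cellularization libraries in 22 of 35 members, against 5 for replicate 1 and 8 for replicate 2. Its lead was seen outside the members as well, since the median share among cellularization genes with 5 to 9 contigs was 47.2%, 46.2% and 48.5% in replicates 1 to 3.

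**Figure D1:**
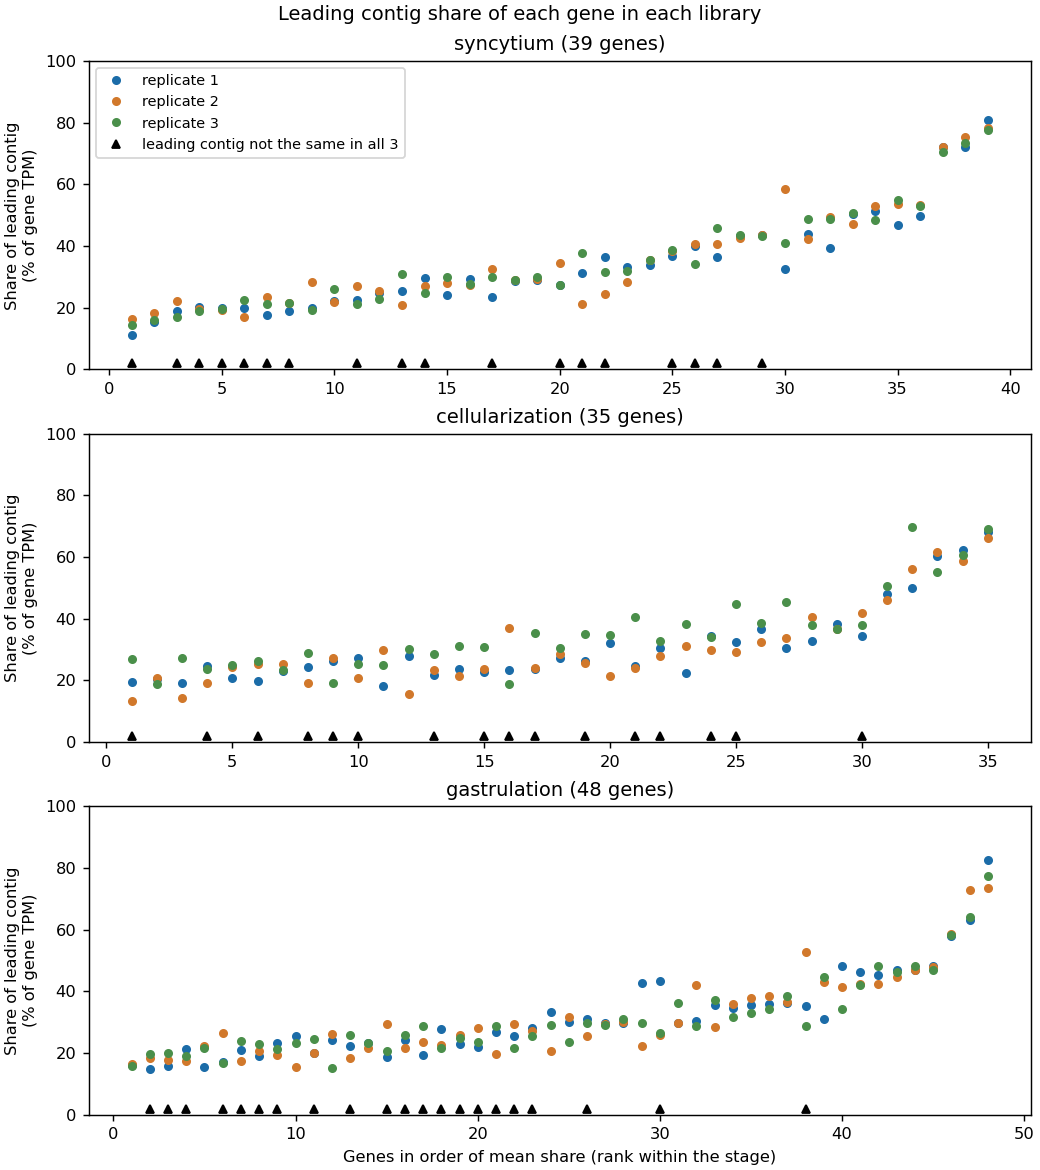
Share of the gene's TPM held by its leading contig (vertical axis, percent) for each of the 39, 35 and 48 genes, ranked by mean share, with 1 coloured point per replicate; black triangles mark the genes whose leading contig was not the same in all 3 libraries. Most genes sit between 20% and 40%, a few reach 60% or more, and the triangles thin out to the right, where the leading share is high.

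Single members differed widely in how far one contig led. The mean leading share over 3 libraries spanned 13.9% to 79.0% among syncytium members, 20.001% to 67.8% among cellularization members and 16.2% to 77.8% among gastrulation members. It reached 50% or more in 6 of 39, 4 of 35 and 3 of 48 members. Counted in each library, members at 50% or more made up 15.4% ± 2.56, 12.4% ± 1.65 and 6.94% ± 1.20 of all (SD, n = 3 each). Both earlier stages lay above gastrulation in every library. The exact permutation p over the 3 stages was 0.00714, and 0.0571 after adjustment over 8 measures, so the difference did not pass. It rests on few genes, with 5, 7 and 6 members in the syncytium libraries, 4, 4 and 5 at cellularization and 3, 4 and 3 at gastrulation. In genes of the same window with 10 to 14 contigs, the percent at 50% or more was 18.2% to 19.5% in the syncytium libraries. It was 20.2% to 26.6% at cellularization and 20.4% to 21.6% at gastrulation, so gastrulation was not the lowest stage there.

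The effective number of isoforms is the number of equally abundant contigs that would give the same diversity of shares, computed as the exponential of the Shannon entropy. Its median over the members was 6.98, 6.65 and 6.21 in syncytium replicates 1, 2 and 3, 7.90, 7.43 and 6.96 at cellularization, and 7.96, 7.26 and 7.54 at gastrulation. The stage means were 6.61 ± 0.389, 7.43 ± 0.467 and 7.59 ± 0.353 (SD, n = 3 each). All gastrulation libraries lay above all syncytium libraries, by 0.975 in the mean (exact permutation p = 0.1, the smallest that 3 against 3 libraries allow, and 0.3 after adjustment over 24 pair tests). Cellularization was 0.816 above the syncytium and gastrulation 0.159 above cellularization, with overlapping libraries in both (exact p = 0.2 and 0.7), and the sign of the smaller difference turned without cellularization replicate 3 or gastrulation replicate 1. With the mean over members in place of the median, these differences were 0.00494 (exact p = 1) and 0.694 (exact p = 0.1), so which step held the difference depends on the summary used. Over the 3 stages the test did not pass (exact p = 0.075, adjusted 0.15), although p was 0.0464, 0.0393 and 0.0464 without cellularization replicate 1, cellularization replicate 3 or gastrulation replicate 2. With contigs of 500 bases or more alone, p was 0.00357, the smallest that the exact test over 3 stages allows. That setting held 32, 27 and 38 genes, so its list of genes differs as well. The direction also depends on which genes are included. With 15 contigs required to have reads, 15, 14 and 24 members were left, and all their contigs were kept. Gastrulation minus syncytium was then -1.44. Stage, assembly and list of members cannot be told apart in these comparisons, because each stage has its own.

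**Figure D2:**
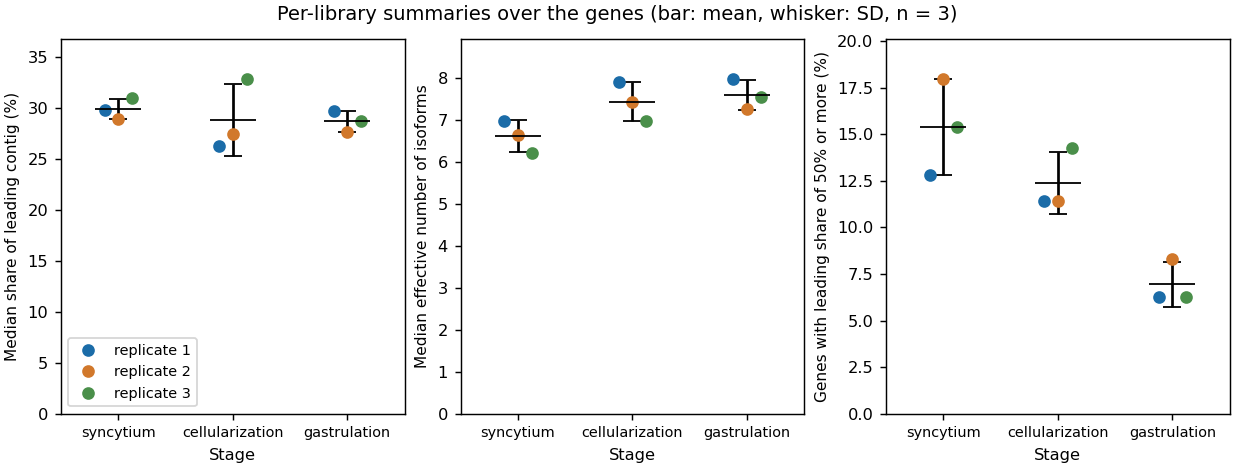
Median leading share in percent, median effective number of isoforms and percent of genes with a leading share of 50% or more, with 1 point per library and a bar with whiskers for the mean and SD of 3 libraries. The leading shares of the stages overlap. The mean effective number is lowest in the syncytium, with overlap between its libraries and those of cellularization. The percent at a share of 50% or more is lowest at gastrulation.

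A typical member thus had 16 or 17 listed contigs, an effective number near 7 and a median of 6 contigs with 5% or more of the gene's TPM (5 in cellularization replicate 3). Divided by the contigs listed, the effective number was 0.395 ± 0.0160, 0.418 ± 0.0286 and 0.431 ± 0.00785 in the 3 stages (SD, n = 3 each; exact permutation p = 0.143, adjusted 0.229). The leading contig exceeded the next one by 1.49 ± 0.0505, 1.39 ± 0.161 and 1.46 ± 0.0727 times in the median (exact p = 0.564, adjusted 0.752). A median of 16.2% ± 2.73, 21.2% ± 2.17 and 14.6% ± 3.21 of a member's contigs were at 0 TPM in a library. Cellularization was above both other stages without overlap, but the test over the stages did not pass (exact p = 0.0607, adjusted 0.15). Across members, the Spearman correlation of listed contigs with the effective number was 0.121 (n = 39), 0.0820 (n = 35) and 0.163 (n = 48), given as a description. That of mean TPM with the effective number was -0.114, -0.166 and -0.206.

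**Figure D3:**
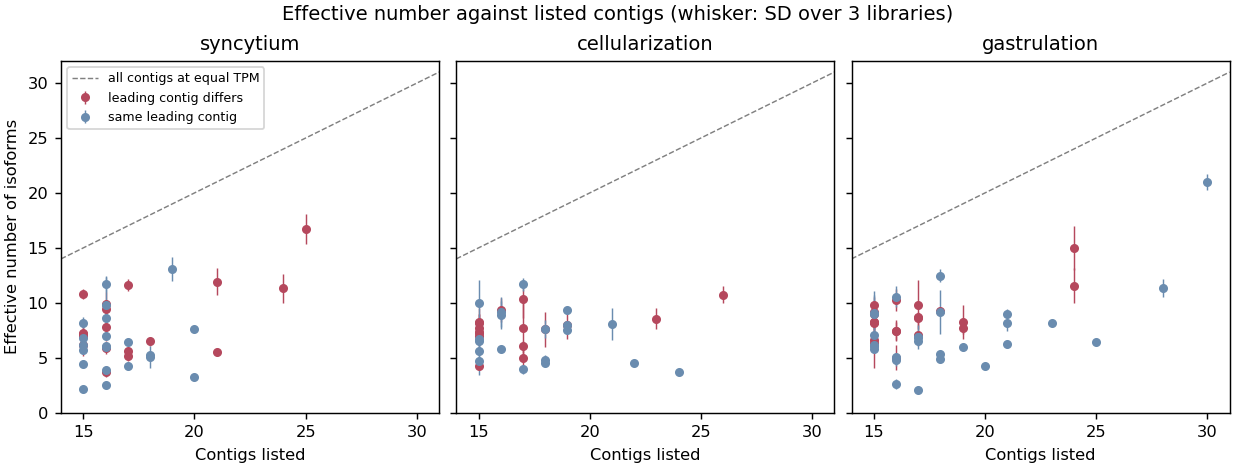
Effective number of isoforms (mean of 3 libraries, whiskers SD) against the number of contigs listed, 1 point per gene, coloured by whether the leading contig was the same in all 3 libraries; the dashed line marks contigs at equal TPM. All points lie below the line, and genes with 15 to 17 contigs spread from about 2 to 12.

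The leading contig was often not the same in the 3 libraries of a stage. In the syncytium it was the same in 21 of 39 members, took 2 identities in 14 and was different in every library in 4. At cellularization these numbers were 19, 8 and 8 of 35, and at gastrulation 27, 17 and 4 of 48. The leader thus differed in 46.2%, 45.7% and 43.8% of members. Among all genes with 2 or more contigs in the same window of level and length the background was 22.0% for syncytium genes, 25.8% for cellularization genes and 23.5% for gastrulation genes. Between a pair of libraries the leader differed in 25.6% to 41.03% of syncytium members, 34.3% to 42.9% of cellularization members and 29.2% to 33.3% of gastrulation members. The 3 pairs of a stage share libraries, so no test was made of these values.

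Some of these changes were between contigs of similar level and some were not. In 7 of the 18 syncytium members with more than 1 leader, 9 of the 16 at cellularization and 9 of the 21 at gastrulation, there was a pair of libraries in which each library's leader exceeded the leader of the other library by 1.5 times or more. In members with 1 leader, the mean leading share had a median of 43.1%, 30.6% and 34.1%, and in the others of 26.5%, 26.05% and 23.9%. The leader exceeded the next contig 1.90, 1.54 and 1.77 times in the median of members with 1 leader and 1.31, 1.31 and 1.26 times in the others. The members with 1 leader were also deeper, with a median of 5002, 2801 and 2575 estimated counts in their lowest library against 1056, 1385 and 1715. The part of depth in these changes was not tested. Among the 35, 30 and 46 members with 200 or more counts in every library the mean over pairs was 31.4%, 32.2% and 29.7%, against 34.2%, 38.1% and 31.9% in all. That limit lies below the median counts of both kinds of member and drops few members, so it does not address this difference in depth.

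Below the limit of 15 contigs, the leader differed more often at each step up in contig number. Genes of the same window with 2 to 4 contigs had a leader that differed in 17.6%, 19.2% and 17.8% of cases, those with 5 to 9 contigs in 30.8%, 38.4% and 34.4%, and those with 10 to 14 contigs in 38.0%, 47.1% and 41.1%. At cellularization the 35 members, at 45.7%, were thus not above the 312 genes with 10 to 14 contigs. The leading share was lower at each of these steps, with stage means of 74.9%, 75.6% and 75.8% at 2 to 4 contigs, 47.5%, 47.3% and 48.2% at 5 to 9, and 35.9%, 35.8% and 34.3% at 10 to 14. The effective number was 1.82, 1.81 and 1.81, then 3.48, 3.50 and 3.45, then 5.26, 5.32 and 5.51. The number of contigs bounds these measures and was used to choose the members, so the steps are a description.

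**Figure D4:**
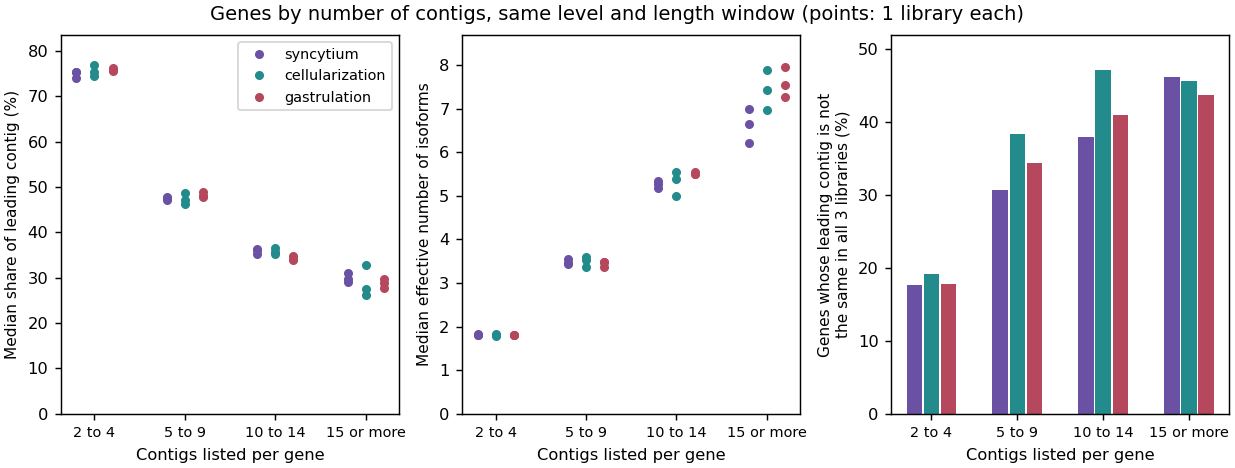
Median leading share in percent, median effective number (1 point per library) and percent of genes whose leading contig was not the same in all 3 libraries (1 bar per stage), for genes of the same level and length window with 2 to 4, 5 to 9, 10 to 14 and 15 or more contigs. The leading share is lower and the effective number higher at every step in all stages, while the last 2 bars are 38.0% and 46.2% for the syncytium, 47.1% and 45.7% for cellularization, and 41.1% and 43.8% for gastrulation.

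Larger moves of single contigs occurred in a few members. A contig with 20% or more of its gene's TPM in one library and under 1% in another occurred in 2 of 39, 4 of 35 and 3 of 48 members, or 5.13%, 11.4% and 6.25%. The background over genes with 2 or more contigs was 9.31%, 12.6% and 10.1%. Among genes of the same window with 10 to 14 contigs it was 11.8%, 17.0% and 11.9%. The count needs a contig at 20% or more, and the leading share was lower in genes with more contigs. With so few members it is not read as a result about them. In no member did the share of a contig move by 50 percentage points or more (0 of 39, 0 of 35 and 0 of 48). Such a move needs a contig that holds 50% or more in some library, which few members had. The same count over other genes was not made, so this count says little about the members. The widest move of a contig within a member had a median of 10.8, 12.6 and 11.9 percentage points.

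The leading contig was seldom the longest one. It was the longest contig of its gene in 3, 2 and 2 of 39 members in syncytium replicates 1, 2 and 3, in 1, 1 and 0 of 35 at cellularization and in 2, 1 and 1 of 48 at gastrulation. As percentages, the syncytium lay above both other stages in every library, at 5.98% ± 1.48 against 1.90% ± 1.65 and 2.78% ± 1.20 (SD, n = 3 each), but the test did not pass after adjustment (exact permutation p = 0.0214, adjusted 0.0857). Among genes of the same window with 2 to 4 contigs the stage means were 42.6%, 40.7% and 42.8%. With 10 to 14 contigs they were 6.51%, 8.76% and 9.82%, so the syncytium was not above the other stages there. The length of the leader was a median of 74.95%, 79.1% and 78.9% of the longest contig in the syncytium libraries, 63.3%, 52.2% and 56.6% at cellularization and 57.4%, 61.3% and 56.0% at gastrulation. Leaders under 500 bases numbered 3 to 5, 3 to 4 and 4 to 6 per library. By estimated counts in place of TPM, which favour long contigs, the leader was the longest contig in 3, 3 and 2, then 3, 3 and 2, then 3, 4 and 4 members. Both measures named the same leader in 66.7% to 79.5% of syncytium members, 54.3% to 68.6% of cellularization members and 70.8% to 72.9% of gastrulation members. Most members hold contigs of nearly equal length. With contigs joined where neighbouring lengths differed by at most 2%, a grouping added after the values were seen, a member had a median of 7, 9 and 8 length classes. The leading class then differed between a pair of libraries in 18.8%, 31.4% and 13.9% of members in the mean. Joining leaves fewer classes that can lead, and down to 1 class per member, where no change is possible. These values therefore cannot tell the part of like lengths from that of the smaller number of classes.

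Among syncytium members, TRINITY_DN5114_c0_g2 had the most contigs and the flattest make-up. It listed 25 contigs of up to 9490 bases and had 30.1, 25.5 and 25.1 TPM in replicates 1, 2 and 3. Its effective number was 18.3, 15.9 and 15.98, and the leader was i19 with 11.2%, i14 with 16.2% and i7 with 14.4%. These 3 contigs measure 8948, 8794 and 8942 bases. TRINITY_DN5743_c0_g1, with 24 contigs, also had a different leader in each library, with 19.8%, 17.0% and 22.7%. Its contig i13 held 17.1%, 5.60% and 22.7% of the gene's TPM. TRINITY_DN2283_c0_g1 had a leading share nearly as low, but i31 led in every library, with 15.5%, 18.2% and 15.97%.

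At the other end, TRINITY_DN1111_c0_g2 listed 15 contigs and was held by one of them in all syncytium libraries. Its contig i11, of 5942 bases, had 81.1%, 78.4% and 77.6% of the gene's 59.5, 52.5 and 53.3 TPM. The effective number was 2.17, 2.07 and 2.19, and 8 of the 15 contigs were at 0 TPM in each library. TRINITY_DN2322_c0_g2, with 16 contigs, was close to it at 72.1%, 75.3% and 73.4% for i15. The most abundant syncytium member, TRINITY_DN5747_c0_g2, had 374, 286 and 304 TPM and a constant leader, i14, with 46.8%, 53.6% and 54.8%. Its contig i12 nevertheless moved, with 15.8%, 0.503% and 2.83% of the TPM, or 7638, 183 and 1911 estimated counts. TRINITY_DN3039_c0_g1, second in level with 311, 276 and 269 TPM, was led by i12 with 39.5%, 49.3% and 48.7%. Its next contig, i10, held 31.9%, 23.3% and 20.8%, so replicate 1 had the most even pair.

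Among syncytium members with 200 or more estimated counts in every library, the widest moves were in TRINITY_DN2112_c0_g1 and TRINITY_DN48_c0_g1. In TRINITY_DN2112_c0_g1 contig i10, of 1173 bases, held 31.2%, 20.01% and 0.0132% of the gene's TPM, and it led in replicate 1 while i8, of 4549 bases, led in replicates 2 and 3. That share of i10 rested on 92.0, 50.95 and 0.0455 estimated counts. In TRINITY_DN48_c0_g1 the leader was i9 throughout, with 32.7%, 58.4% and 41.1%. Contig i16, which is 12 bases shorter, held 24.6%, 0.000373% and 15.02%. The sum of i9 and i16 was 57.3%, 58.4% and 56.1%, so the pair together moved less than either contig. Such sums were steady in some other named members and not in others. In TRINITY_DN3039_c0_g1 the sum of i10 and i12 was 71.4%, 72.6% and 69.5%. In TRINITY_DN5743_c0_g1 that of i13 and i2 was 36.1%, 22.6% and 39.2%.

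Among cellularization members, TRINITY_DN4887_c0_g1 had both the highest level and the highest leading share. It listed 24 contigs and had 406, 348 and 517 TPM, of which i20, of 1478 bases, held 68.1%, 66.3% and 69.1%. Its effective number was 3.63, 3.91 and 3.45, and no contig moved by more than 2.81 percentage points. TRINITY_DN215_c0_g1 was also held by one contig, i9, with 62.2%, 58.7% and 60.6%. The second in level, TRINITY_DN514_c0_g1 with 283, 268 and 228 TPM, was led by i1 with 31.97%, 21.4% and 34.8%. TRINITY_DN830_c1_g1, with 26 contigs the longest list of the stage, had no constant leader. Its leader was i22 in replicate 1 with 19.5%, i6 in replicate 2 with 13.4% and i33 in replicate 3 with 27.0%. These contigs measure 439, 1191 and 2915 bases.

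TRINITY_DN1407_c0_g2 had the highest effective number at cellularization, 11.2, 12.3 and 11.5, and a constant leader, i17, at 20.4%, 20.7% and 18.9%. Among cellularization members with 200 or more estimated counts in every library, the widest moves were in TRINITY_DN2024_c0_g1 and TRINITY_DN1356_c0_g1. In TRINITY_DN2024_c0_g1 contig i1 held 24.5%, 5.53% and 40.5%, and i19, which is 12 bases longer, led in replicate 2 with 24.2%. The sum of i1 and i19 was 44.5%, 29.7% and 53.1%, so this pair together moved as well. In TRINITY_DN1356_c0_g1 contig i24 held 0.163%, 0% and 30.7% and i15 held 0.0819%, 0% and 19.5%. Both were high in replicate 3 and at or near 0 in the other libraries, with 193 and 125 estimated counts there, and their lengths of 4646 and 4711 bases differ by 65. The whole gene had 7.83, 10.2 and 7.89 TPM in the same libraries, so its level in replicate 3 was close to that in replicate 1.

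**Figure D5:**
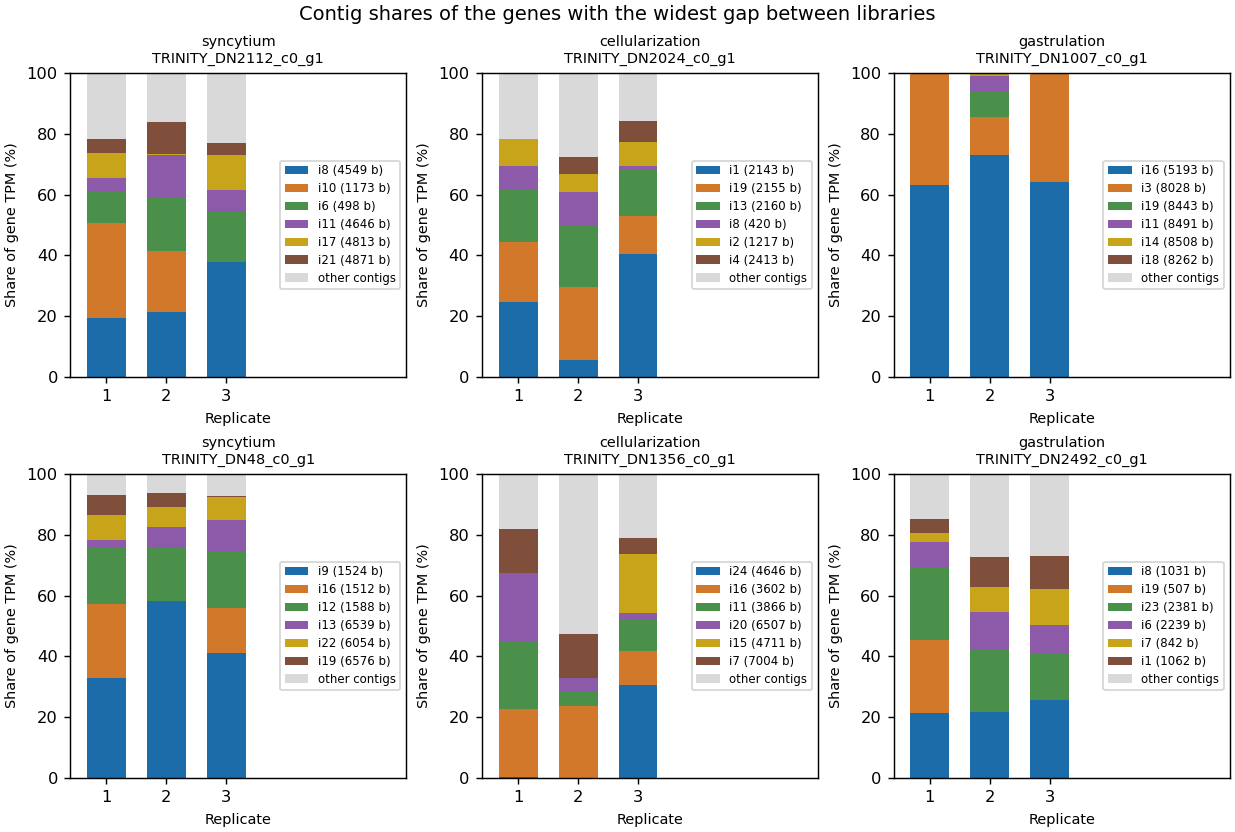
Share of the gene's TPM (percent) held by the 6 contigs with the highest shares, with their lengths in bases, in each replicate of the 2 genes per stage with the widest move of a contig between libraries among those with 200 or more estimated counts in every library; grey stands for the other contigs. Contig i24 of TRINITY_DN1356_c0_g1 appears in replicate 3 at 30.7%, and i9 with i16 of TRINITY_DN48_c0_g1 fills 56.1% to 58.4% of each bar.

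Among gastrulation members, TRINITY_DN428_c1_g1 was the most complex of all 122. It listed 30 contigs, none at 0 TPM in any library, and had 166, 222 and 202 TPM with 18150, 19686 and 22820 estimated counts. Its effective number was 20.3, 20.9 and 21.8, and its leader was i24 in all 3 libraries, with 16.3%, 16.6% and 15.7%. Contig i33, of 6409 bases, held 7.80%, 0.00952% and 9.02%. TRINITY_DN2196_c0_g1, with 28 contigs, had a constant leader, i12, at 29.7%, 30.2% and 30.9%, and an effective number of 10.4, 11.96 and 11.7. A long list thus went with a constant leader in both. TRINITY_DN329_c0_g1, with 24 contigs, had an effective number of 17.0, 15.02 and 12.9, and i22 led in replicates 1 and 2 with 14.7% and 18.4% and i18 in replicate 3 with 19.7%.

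The most abundant gastrulation member, TRINITY_DN2411_c0_g1, had 480, 473 and 495 TPM and was led by i14 with 29.8%, 29.7% and 36.4%. TRINITY_DN5145_c0_g1 had 202, 269 and 234 TPM and the highest leading share of the stage, 82.5%, 73.5% and 77.4% for i17, with an effective number of 2.18, 3.04 and 2.55. In TRINITY_DN1007_c0_g1 contig i16 held 63.1%, 73.0% and 64.1% and i3 held 36.8%, 12.4% and 35.8%. That pair made up nearly all of the TPM in replicates 1 and 3. In replicate 2, which stood apart, i19 held a further 8.55% and i11 a further 5.02%. In TRINITY_DN2492_c0_g1 contig i19, of 507 bases, held 24.3%, 0% and 0%, on 44.4 estimated counts in replicate 1. TRINITY_DN1891_c0_g1 and TRINITY_DN1891_c0_g2 were the only members that shared a component, the level above the gene in the assembler's names. Whether they share sequence was not tested.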

How the data were processed

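Total RNA of whole embryos was measured in 9 libraries, 3 per stage, grouped by the stage in the labels. Estimated counts and TPM of each contig are the authors' values, and the submitters' processing notes list kallisto 0.44.4. The deposited TPM values sum to about 1000000 per library and the deposited estimated counts are not normalized. Contig names have the form that Trinity gives, which is how the assembler is known here. The leading share, the effective number and the leader differences between libraries were recomputed under alternatives given in the closing section. The other tested measures were not recomputed there. These include the percent of members at a leading share of 50% or more and the percent led by the longest contig. How far their differences between stages depend on those alternatives was not tested. The sources used here do not give the assembler's version, the settings of kallisto, trimming or strand. Nothing says that the libraries came from separate collections beyond the design text calling them biological. The p-values set differences between stages against the spread between these libraries. They take no account of the assembly and list of members, which the libraries of a stage share and which differ between stages.

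Contigs were summed per Trinity gene with Python 3.11.15 and pandas 2.3.3. Per library, leading share, effective number and 6 further measures were summarised over members as medians or percentages, and stages were compared by exact permutation of libraries, two-sided, with Benjamini-Hochberg adjustment over 8 measures and over 24 pair tests. The smallest p over 3 stages is 0.00357. Some tested measures depend on the contig number or contig length that the choice of members used. These include the effective number per listed contig, the percent of contigs at 0 TPM and the percent led by the longest contig. The functions were tested on simulated shares with known answers. Contig lists differ between stages, so no gene was tested between stages.

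The members, lists and measures were chosen with earlier results of these data known. Named genes are, per stage, those with the most contigs, highest TPM, highest and lowest leading share, highest effective number and widest move of a contig at 200 or more counts, 2 each. TRINITY_DN1434_c0_g1 and the DN1891_c0 pair, and the genes left out at the limits, were named outside that rule after their values were seen.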

Additional observations from a re-analysis of the deposited data

How the results depend on the processing

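Values below are differences in percentage points of median leading share or in effective number, exact p over the 3 stages, or the mean percent of members whose leader differs between pairs of libraries. With 20 or more contigs (6, 5 and 10 members) directions turned: leading share 2.92 for cellularization and 1.92 for gastrulation against the syncytium, effective number -1.70 and -0.510, with an exact p of 0.0107. With 15 contigs required to have a count they were 3.39 and 3.82, and -1.22 and -1.44, and gastrulation against cellularization gave 0.436 and -0.216. Against the syncytium, cellularization leading share was 0.0566 with 200 or more counts per member. Gastrulation against cellularization gave a leading share of 0.0538 from 1 TPM, 0.352 per component (effective number -0.166) and 0.877 with lengths within 2% joined. The setting per component held 155, 140 and 181 components, a larger set than the members. With the mean over members, the effective number gave 0.00494 for cellularization minus syncytium and 0.694 for gastrulation minus cellularization, against 0.816 and 0.159. The exact p of the effective number, 0.075, was 0.025 by counts, 0.0429 without the upper level, 0.0393 without the length limit, 0.00357 for contigs of 500 bases or more and 0.025 with 200 counts. Leader differences were 61.1%, 33.3% and 13.3% with 20 or more contigs, 23.7%, 30.0% and 30.0% per component, 8.55%, 10.5% and 9.03% where leaders differed 1.5 times, and 18.8%, 31.4% and 13.9% with lengths joined. They were 32.2% at cellularization with 200 counts and 23.6% at gastrulation with 15 contigs required to have a count.

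On leaving out 1 library, the leading share of cellularization minus syncytium ranged from -3.06 to 0.223, of gastrulation minus cellularization from -1.43 to 1.85 and of gastrulation minus syncytium from -1.70 to -0.678, with exact p from 0.0464 to 0.957. Signs turned without cellularization replicate 1 (cellularization minus syncytium) and without cellularization replicate 3 or gastrulation replicate 2 (gastrulation minus cellularization). The effective number ranged from 0.582 to 1.049, from -0.0736 to 0.394 and from 0.772 to 1.18, with exact p from 0.0393 to 0.182, and leader differences from 25.6% to 41.03%, from 34.3% to 42.9% and from 27.7% to 33.3%. Permuting within replicate numbers (a replicate block) gave exact p of 0.722 for the leading share and 0.0833 for the effective number, and changed no call. The numbers are not stated to pair the libraries, and contigs cannot be matched across stages to check it. The cause of these changes was not tested.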
